A study of Mus musculus with 3 samples.

Results

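The RBFOX2 crosslink clusters described here lay in introns beside short internal exons, among them microexons of 27 nt or less, in primary mouse hepatocytes. They were chosen by position. The midpoint of a cluster had to lie in a protein-coding gene on the same strand and in no annotated exon of any transcript. The nearest exon of that gene's coding transcripts had to be internal, 51 nt or shorter and 1 to 500 nt from the midpoint. Of the 87021 clusters in the pooled list, 802 (0.922%) met this rule, or 1.75% of the 45841 clusters in introns of coding genes. They lay beside 559 exons of 470 genes. Of these clusters, 222 lay beside 129 exons of 27 nt or less and 580 beside 430 exons of 28 to 51 nt.

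RBFOX2 was immunoprecipitated by eiCLIP, a CLIP method in which the start of each cDNA marks the crosslinked nucleotide, from UV-treated hepatocytes of C57BL6/J mice on a control diet. There were 3 libraries in 1 group, each labelled as made from 3 livers (the study's methods describe the mice per culture differently), and the cells were plated overnight before crosslinking. No knockout or treated group belongs to the comparison, and no input library was used here. The libraries were pooled before clusters were called, so no value below has a replicate check or a test, the depth per library is unknown, and every 95% interval covers counting error only. Among the genes that mark the labelled cells, 7 of 8 hepatocyte genes held a cluster (median summed count 929, range 0 to 8110, with Serpina1a at 0), against 3 of 7 genes of other liver cells (median 0, range 0 to 15).

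RBFOX proteins bind the RNA element UGCAUG or its core GCAUG in introns and act on splicing according to position: binding downstream of an alternative exon usually goes with inclusion, and binding upstream with skipping. Microexons are so short that both splice sites compete for space, and many depend on intronic elements and their binding proteins for recognition. They are best known from neurons and muscle, where they insert a few amino acids into proteins of the cytoskeleton, of membrane traffic and of synapses.

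A selection of the exons with high summed counts is shown with 15 nt of the neighbouring exon on each side in the spliced transcript. Capitals mark the short exon itself, so that its size against its neighbours can be seen. Sequences and positions come from GENCODE M21 transcripts on GRCm38 and read 5′ to 3′ on the gene's strand. The microexons among them included both acceptor forms of 1 Myo18a exon, whose shared end makes the 9-nt form the last part of the 12-nt form.
Myo18a 21 nt, chr11:77821530-77821550, plus strand: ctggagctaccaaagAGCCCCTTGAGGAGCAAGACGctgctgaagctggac
Myo18a 12 nt, chr11:77822663-77822674, plus strand: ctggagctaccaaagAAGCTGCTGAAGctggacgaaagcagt
Myo18a 9 nt, chr11:77822666-77822674, plus strand: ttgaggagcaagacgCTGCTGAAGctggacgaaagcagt
Ptprd 27 nt, chr4:76095520-76095546, minus strand: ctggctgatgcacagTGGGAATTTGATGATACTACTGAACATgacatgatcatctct
Emc1 9 nt, chr4:139364331-139364339, plus strand: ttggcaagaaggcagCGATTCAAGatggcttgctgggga
Dnm2 12 nt, chr9:21490658-21490669, plus strand: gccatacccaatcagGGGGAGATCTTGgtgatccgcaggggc
Flna 24 nt, chrX:74232967-74232990, minus strand: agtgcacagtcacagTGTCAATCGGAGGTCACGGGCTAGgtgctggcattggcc
Psd3 3 nt, chr8:67901808-67901810, minus strand: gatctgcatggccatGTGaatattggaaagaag
Cltc 21 nt, chr11:86701061-86701081, minus strand: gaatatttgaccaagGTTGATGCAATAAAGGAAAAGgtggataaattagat

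From the class of 28 to 51 nt, the exons with the highest count in a cytoskeletal and an RS-domain gene are shown. The exons of the splicing genes Mbnl1 and Ptbp2, the Numb exon and both short Rbfox2 exons that had clusters follow. The pair from Rbfox2 is joined to the same neighbouring sequence on each side.
Epb41 36 nt, chr4:131955543-131955578, minus strand: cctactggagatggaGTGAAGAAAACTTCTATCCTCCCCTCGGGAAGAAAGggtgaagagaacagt
Nktr 45 nt, chr9:121729636-121729680, plus strand: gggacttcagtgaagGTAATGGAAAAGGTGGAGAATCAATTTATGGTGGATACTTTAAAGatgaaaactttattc
Mbnl1 36 nt, chr3:60621423-60621458, plus strand: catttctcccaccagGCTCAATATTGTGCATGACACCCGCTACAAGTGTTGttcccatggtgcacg
Ptbp2 34 nt, chr3:119724612-119724645, minus strand: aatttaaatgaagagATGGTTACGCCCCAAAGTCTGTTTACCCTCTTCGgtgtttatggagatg
Numb 33 nt, chr12:83825259-83825291, minus strand: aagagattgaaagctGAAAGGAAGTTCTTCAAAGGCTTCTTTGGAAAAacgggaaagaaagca
Rbfox2 40 nt, chr15:77094451-77094490, minus strand: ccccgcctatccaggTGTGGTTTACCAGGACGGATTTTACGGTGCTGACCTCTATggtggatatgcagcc
Rbfox2 43 nt, chr15:77091812-77091854, minus strand: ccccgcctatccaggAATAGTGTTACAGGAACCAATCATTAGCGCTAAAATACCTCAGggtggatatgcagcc

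Short exons had an intronic cluster more often than longer exons, and the shortest had one most often. Among internal exons of coding genes with at least 1 cluster anywhere, 559 of 5667 exons of 51 nt or less had one within 500 nt (9.86%, Wilson 95% interval 9.11 to 10.7%). The background over all 108699 internal exons of these genes was 6.99%. The share was 12.6% (10.8 to 14.8%) for 129 of 1020 exons of 27 nt or less and 9.25% (8.45 to 10.1%) for 430 of 4647 exons of 28 to 51 nt, and 6.83% (6.68 to 6.99%) for 7038 of 103032 longer exons. Microexons thus exceeded longer exons by 5.82 percentage points (Newcombe 95% interval 3.91 to 8.0), a ratio of 1.85 (1.57 to 2.18), and exons of 28 to 51 nt exceeded them by 2.42 points (1.61 to 3.30), a ratio of 1.35 (1.23 to 1.49). The classes themselves differed by 3.39 points (1.30 to 5.72), but by 1.54 points (-1.67 to 5.34) where both introns measured 1000 nt or more.

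Beyond 51 nt the share varied little with length. It was 7.01% for exons of 52 to 100 nt, 6.76% for exons over 200 nt and within 6.61 to 6.83% for the lengths between. At the limits of the classes the steps were small: 12.1% of exons of 22 to 27 nt and 9.88% of those of 28 to 33 nt had a cluster, as did 8.52% of exons of 46 to 51 nt and 7.48% of those of 52 to 57 nt, with overlapping intervals in both pairs.

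**Figure D1:**
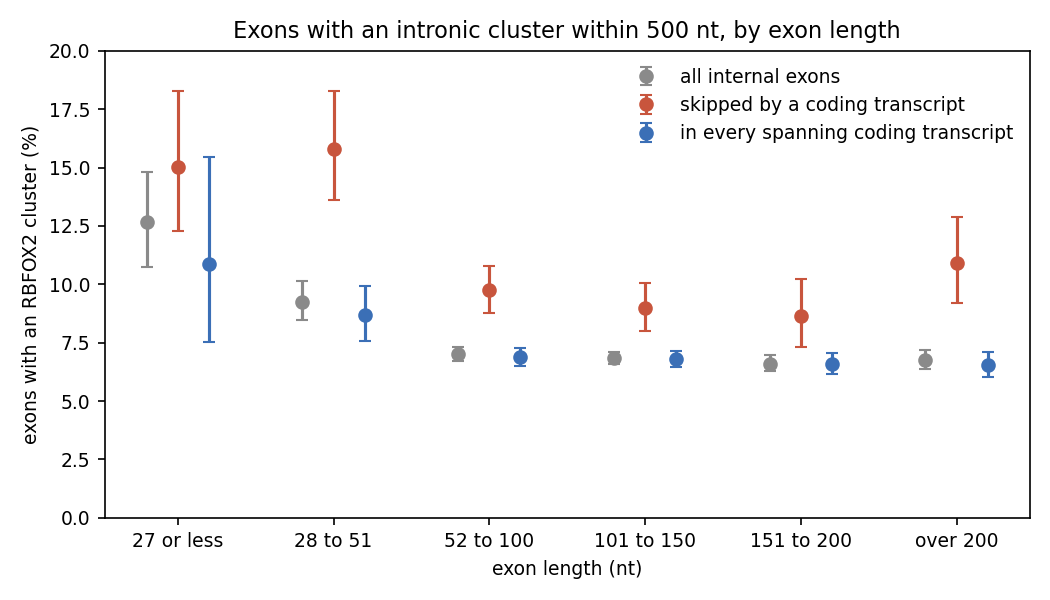
Share of internal exons with an intronic RBFOX2 cluster within 500 nt (y axis, percent) by exon length (x axis, nt), for all exons, exons skipped by a coding transcript and exons used by every spanning coding transcript; bars are Wilson 95% intervals. The share of all exons falls from 12.6% at 27 nt or less to 7.01% at 52 to 100 nt and stays near that level, and skipped exons lie above the other exons in each bin.

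Exons that some coding transcripts of the gene skip had clusters more often, and short skipped exons more often than long ones. An exon was called skipped when an intron of at least 1 coding transcript spanned it, and constitutive when at least 2 coding transcripts spanned it, none skipped it and no longer exon covered it. These calls come from the annotation, not from splicing in these hepatocytes. Among skipped exons 232 of 1495 short ones (15.5%) had a cluster, against 9.45% of longer ones, a difference of 6.07 points (4.21 to 8.08). Among constitutive exons the shares were 8.90% and 6.75%, a difference of 2.16 points (1.07 to 3.36). The difference between skipped and constitutive exons was 7.11 points (4.59 to 9.81) for exons of 28 to 51 nt and 2.71 points (2.08 to 3.37) for longer ones. For microexons it was 4.16 points with an interval that included 0 (-1.18 to 8.80).

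The order of the length classes depended on the kind of exon. Skipped microexons (15.04%) and skipped exons of 28 to 51 nt (15.8%) differed by -0.76 points (-4.45 to 3.13). Among constitutive exons with both introns of 1000 nt or more, only 5 of 90 microexons had a cluster (5.56%), which differed from longer exons by -0.84 points (-4.01 to 5.97). With both introns of at least 1000 nt and any kind of exon, the shares were 12.3% for microexons, 10.8% for exons of 28 to 51 nt and 6.67% for longer exons.

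The excess was also present against longer exons of the same genes, which share a transcript and its abundance. In 736 genes with both kinds of exon, 12.7% of microexons had a cluster against 7.44% of longer exons weighted to the same genes, a ratio of 1.71. For exons of 28 to 51 nt in 2863 genes the shares were 9.22% and 7.13%, a ratio of 1.29. For all short exons the ratio was 1.37 over 3168 genes, with a higher share among the short exons in 453 genes and a lower share in 1229. A gene whose short exons had no cluster counted as lower wherever any of its longer exons had one.

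Clusters lay on both sides of short exons, somewhat more often downstream. Of the 802 clusters, 348 lay upstream and 454 downstream. The share upstream was 42.3% (36.0 to 48.9%) beside microexons (94 and 128 clusters), 43.8% (39.8 to 47.9%) beside exons of 28 to 51 nt (254 and 326 clusters) and 46.4% (45.3 to 47.4%) beside longer exons. The microexons and the exons of 28 to 51 nt differed by -1.45 points (-8.96 to 6.24), and short exons differed from longer ones by -2.97 points (-6.53 to 0.64), so that neither difference could be told from 0 at this number of clusters.

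Counted by exon, 287 short exons (5.06%) had a cluster upstream, against a background of 3.41%, and 328 (5.79%) had one downstream, against a background of 3.94%. Clusters were present on both sides of 56 exons, 25 of them microexons, upstream only at 231 and downstream only at 272. With both introns of 1000 nt or more the sides were level for short exons (142 upstream and 145 downstream). Of the microexons among them, 34 (8.40%, 6.07 to 11.5%) had a cluster upstream and 27 (6.67%, 4.62 to 9.53%) downstream. These intervals overlap, so no order of the sides could be told. By summed count the downstream side was further ahead, with 33.8% of the count upstream beside microexons, 38.8% beside exons of 28 to 51 nt and 45.8% beside longer exons. The Myo18a exon of 21 nt alone supplied 915 of the 4569 downstream counts of the microexons.

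Short exons with a cluster more often had 2 or more of them than longer exons did, and more of their clusters had high counts. A single cluster was present at 442 exons, 2 at 66 and 3 or more at 51, with 5 or more at 18 exons. Among exons with any cluster, 31.8% of microexons and 17.7% of exons of 28 to 51 nt had at least 2, and the 20.9% of all short exons exceeded the 11.2% of longer exons by 9.69 points (6.43 to 13.3). These shares count neighbouring clusters apart, even where they lie a few nt from each other. Merging clusters within 200 nt left 141 of 222 beside microexons and 468 of 580 beside exons of 28 to 51 nt. No share of exons with 2 or more is given for merged clusters, so the excess over longer exons holds for unmerged clusters only.

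The count of a cluster is the pooled number of cDNA starts in it. The clusters beside short exons had counts of 10 to 413 with a median of 18.5 (quartiles 13 and 29), close to the median of 17 beside longer exons and in all other clusters. The difference was at the upper end: counts of 39 or more, the top 10% of the list, were held by 20.7% (15.9 to 26.5%) of clusters beside microexons, 14.1% (11.5 to 17.2%) beside exons of 28 to 51 nt, 8.42% (7.84 to 9.03%) beside longer exons and 10.2% of all other clusters. These 128 clusters came from 95 exons in 83 genes, and 82 of them lay downstream. When only clusters of this strength were kept, the ratio of the share of exons with a cluster to that of longer exons rose to 5.07 (3.55 to 7.23) for microexons and 2.30 (1.78 to 2.97) for exons of 28 to 51 nt.

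Beside microexons the clusters were narrower than beside the other exons. Their median width was 15 nt, against 22.5 nt beside exons of 28 to 51 nt, 25 nt beside longer exons and 18 nt elsewhere. Clusters of 5 nt or less made up 30.6% (24.9 to 37.0%), 20.7%, 19.9% and 26.8% of these sets. The interval for microexons included the share elsewhere. Beside skipped exons 20.7% of the clusters were in the top 10% of counts, against 11.3% beside the other short exons.

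The clusters were spread over the 500 nt rather than packed against the splice sites. The median distance from exon edge to cluster midpoint was 178 nt. It was 141.5 nt upstream and 205.5 nt downstream of microexons, and 176.5 and 185 nt for exons of 28 to 51 nt. Within 100 nt of the exon lay 30.5% of the clusters, against 36.1% beside longer exons.

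**Figure D2:**
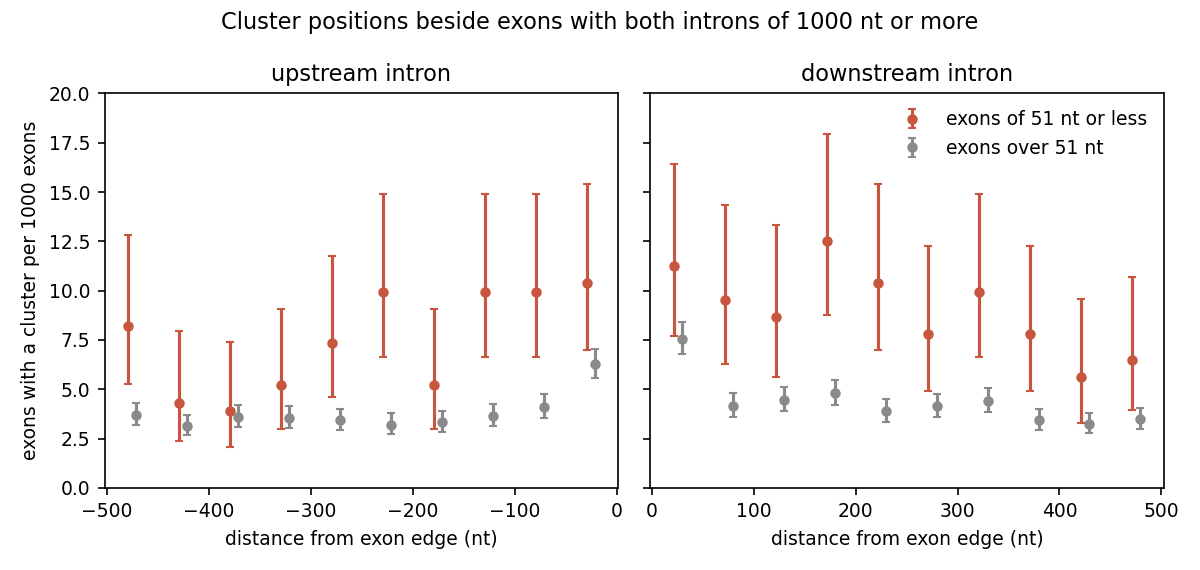
Number of exons per 1000 with a cluster midpoint in each 50-nt bin (y axis) by distance from the exon edge (x axis, nt; negative upstream), for exons of 51 nt or less and over 51 nt whose introns both measure 1000 nt or more; bars are Wilson 95% intervals. Short exons lie above longer ones in each bin of both introns, although the intervals overlap in several of them.

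A few exons held much of the count. The 12 microexons with the highest sums, in 10 genes, held 49.96% of the count beside microexons, and the 12 exons of 28 to 51 nt held 26.0% of theirs. Downstream counts were higher than upstream ones at 9 of the 11 microexon loci, with both forms of 1 Myo18a exon read together, and at 8 of the 12 exons of 28 to 51 nt. The adjacent Myo18a loci share an intron, whose clusters went to the nearer exon. With both Myo18a forms counted, all 12 microexons had a length divisible by 3 and 11 were skipped by a coding transcript. Among all microexons with a cluster these shares were 75.2% and 64.3%. Of the 12 exons of 28 to 51 nt, 8 had such a length and 7 were skipped. Among all exons of that class with a cluster the shares were 53.0% and 34.7%.

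**Figure D3:**
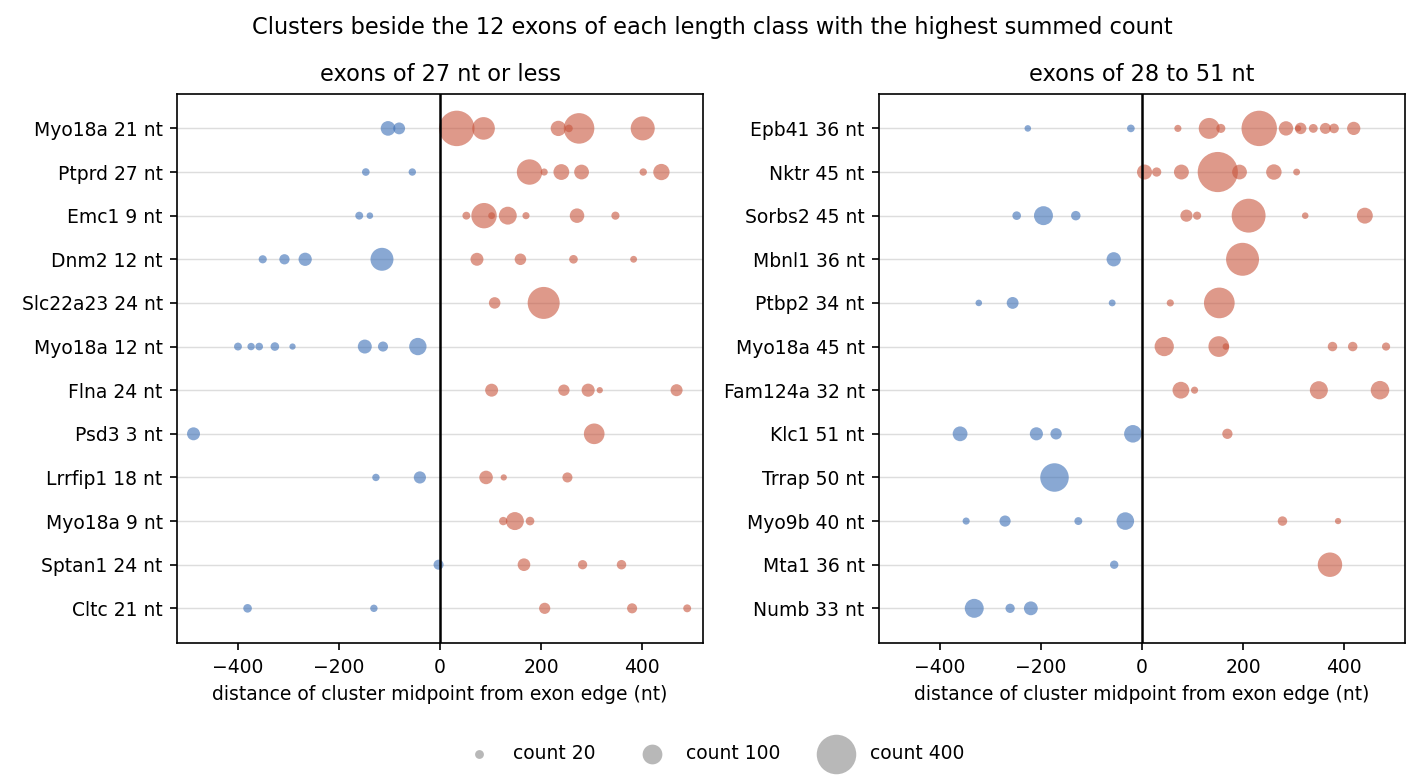
Positions of clusters beside the 12 exons with the highest summed count in each length class (rows, gene and exon length). The x axis gives the distance of the cluster midpoint from the exon edge in nt (0 is the exon, negative values are upstream) and dot area is proportional to the count. The summed count is higher downstream, with Dnm2, the Myo18a exon of 12 nt (whose downstream clusters stand at the 9-nt form), Klc1, Trrap, Myo9b and Numb as the exceptions.

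Among the microexons, the 21-nt exon of Myo18a, an unconventional myosin, had the highest sum, with 91 counts in 2 clusters upstream and 915 in 6 downstream. The downstream clusters held 322 counts at 33 nt, 131 at 86 nt, 60 at 234 nt, 15 at 255 nt, 239 at 275 nt and 148 at 401 nt, so that 4 of the 6 held more counts than both upstream clusters together. These clusters supplied 22.6% of the whole gene's count.

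The next exon of Myo18a has the acceptor forms of 12 and 9 nt printed above. Upstream clusters are nearest to the 12-nt form, and downstream clusters were assigned to the shorter of 2 forms with the same end. The forms are therefore best read as 1 locus of 11 clusters and 347 counts, with 227 counts in 8 clusters upstream and 120 in 3 downstream. The intron from the 21-nt exon to the 9-nt form measures 1115 nt. The 915 counts downstream of the 21-nt exon and these 227 upstream counts thus lie in the same intron, divided only by the nearer exon. Farther along the gene, the 45-nt exon had 279 counts in 6 clusters, all downstream, the highest with 110 counts at 152 nt.

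Flna, the actin crosslinker filamin A, had 167 counts beside its 24-nt exon, all in 5 downstream clusters of 43, 33, 44, 10 and 37 counts at 102 to 468 nt. Sptan1, the spectrin alpha chain of the membrane skeleton, had 26 counts upstream and 86 downstream of a 24-nt exon that no coding transcript skips. Lrrfip1 had 52 counts upstream and 83 downstream of an 18-nt exon (chromosome 1, 91073324 to 91073341). Of these 3 genes, only Flna had no upstream cluster.

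Genes of membrane traffic showed both patterns. Dnm2, the dynamin that cuts endocytic vesicles from the membrane, had 224 counts upstream and 108 downstream of a 12-nt exon. Its upstream clusters held 135 counts at 115 nt, 45 at 267 nt, 27 at 308 nt and 17 at 351 nt, and its downstream clusters 43 counts at 73 nt, 34 at 159 nt, 19 at 264 nt and 12 at 383 nt. The first upstream cluster thus held more than the downstream side in all. Cltc, the clathrin heavy chain, had 33 counts upstream and 74 downstream of a 21-nt exon. At Psd3, an exchange factor for the ARF6 GTPase, a 3-nt exon had 43 counts upstream and 109 downstream at 305 nt.

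Among membrane proteins the downstream side was higher at each of the 3 exons named. Ptprd, a receptor tyrosine phosphatase whose short exons are known from neurons, had 380 counts in 6 downstream clusters of a 27-nt exon, the first with 165 counts at 177 nt, and 29 counts in 2 upstream clusters. Emc1, a subunit of the complex that inserts proteins into the endoplasmic reticulum membrane, had 359 counts in 7 downstream clusters of a 9-nt exon, led by 165 counts at 87 nt and 82 at 134 nt, against 27 counts upstream. Slc22a23, a member of the organic ion transporter family, had 296 counts in 2 clusters downstream of a 24-nt exon (chromosome 13, 34193249 to 34193272), 262 of them at 205 nt, and none upstream.

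In the class of 28 to 51 nt the highest sum was at Epb41, protein 4.1 of the membrane skeleton, with 710 counts, followed by Nktr with 679 and Sorbs2 with 559. Epb41 had the most clusters of any short exon, 13 at its 36-nt exon. The 11 downstream clusters held 684 counts, 321 of them at 232 nt and 112 at 133 nt, and the 2 upstream clusters held 26. Sorbs2, an adaptor of the actin cytoskeleton, had 134 counts in 3 upstream and 425 in 5 downstream clusters at a 45-nt exon (chromosome 8, 45770546 to 45770590), with 294 at 211 nt. This was the highest count on the lesser side of any short exon. A 50-nt exon of the same gene (chromosome 8, 45819719 to 45819768) had 59 counts upstream and 93 downstream.

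The motor genes Klc1 and Myo9b had more upstream. Klc1, a kinesin light chain, had 212 counts upstream and 27 downstream of a 51-nt exon not wholly within coding sequence (chromosome 12, 111793649 to 111793699). Myo9b, an unconventional myosin, had 140 counts upstream and 33 downstream of a 40-nt exon (chromosome 8, 71340760 to 71340799). In both, a cluster of 79 counts lay within 50 nt upstream of the exon, at 18 and 33 nt.

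Among splicing regulators, the exons of Mbnl1 and Ptbp2 were among the 12 highest of their class. Mbnl1, the muscleblind-like factor, had 52 counts in 1 cluster upstream at 56 nt and 278 in 1 cluster downstream at 199 nt of its 36-nt exon. That exon is the only 1 of those printed that holds GCATG itself. Ptbp2, the neuronal polypyrimidine tract-binding protein, had 59 counts in 3 clusters upstream and 254 in 2 downstream of its 34-nt exon, with 241 at 153 nt. Skipping of this exon is known to send the transcript to nonsense-mediated decay, and no coding transcript in the annotation skips it. Snrnp70, the U1-70K protein, was not among those 12. It had 29 counts in 1 cluster, 279 nt upstream of a 49-nt exon that a longer exon overlaps.

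The Rbfox2 transcript had clusters at both of its alternative exons of 40 and 43 nt, which are used in place of one another. The 40-nt exon had 112 counts upstream, 102 of them at 38 nt, and 12 downstream. The 43-nt exon had 28 counts upstream and 29 downstream. The upstream side therefore dominated at the 40-nt exon, and the sides were level at the 43-nt exon.

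Of the other genes that the study followed, Scarb1 and Pla2g6 have no short internal exon in the annotation. Numb, an adaptor of endocytosis and a Notch antagonist, had clusters only upstream of its 33-nt exon, with 49 counts at 220 nt, 22 at 261 nt and 92 at 332 nt. Sec31a, a coat protein of vesicles that leave the endoplasmic reticulum, had clusters at both of its 39-nt exons. At the first in transcript order (chromosome 5, 100389068 to 100389106) all 52 counts were downstream, and at the second (100369596 to 100369634) 48 were upstream and 41 downstream. In Osbpl9, a member of the oxysterol-binding protein family, 1 of 5 short exons had a cluster, with 17 counts 198 nt downstream of a 39-nt exon.

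The remaining exons among the highest were in nuclear genes and 1 gene of less certain role. Nktr, a cyclophilin with a domain rich in arginine and serine, had 679 counts in 7 clusters, all downstream of its 45-nt exon. The cluster at 150 nt held 413, the highest count of any of the 802, and the exon's clusters held 69.4% of the gene's count. Mta1, a subunit of the NuRD chromatin remodelling complex, had 18 counts upstream and 153 downstream of a 36-nt exon. Trrap, a scaffold of histone acetyltransferase complexes, had 1 cluster of 208 counts, 175 nt upstream of a 50-nt exon. Fam124a had 256 counts in 4 clusters downstream of a 32-nt exon.

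Clusters recurred at several short exons of the same gene in 57 genes, and at 4 or more in 9, which were singled out here after their values were seen. Tns1, the integrin-linked tensin, had clusters at 7 of 9 short exons and at 4 of 27 longer internal exons. Myo18a had them at 6 of 6 short and 8 of 45 longer exons, and the 28 clusters beside its short exons held 38.4% of its count. Dctn1, the large subunit of dynactin, had them at 4 of 5 short and 2 of 27 longer exons, all 7 clusters downstream. Myo6, a myosin that moves towards the minus end of actin filaments, had them at 4 of 5 short and 1 of 29 longer exons. In Cd47, the receptor that protects cells from phagocytosis, 4 of 4 short exons and 0 of 10 longer ones had a cluster, and they held 76.1% of its 176 counts. The others were Sptan1 (5 of 6 short and 12 of 51 longer exons), Lrrfip1 (4 of 8 and 6 of 17), Col18a1 (4 of 11 and 7 of 29) and Sorbs2 (4 of 6 and 15 of 23). In all 9 genes the share of exons with a cluster was higher among the short exons, though only narrowly in Sorbs2. Choosing genes by their number of short exons with a cluster favours this order, so it is no separate result. Myo18a and Tns1 had clusters at several longer exons too. Some of these exons overlap as alternative forms, as 54 of the 559 do.

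Lists of related genes, chosen with earlier results known and partly overlapping, are given as counts beside the 9.86% of all short exons. Of genes known for microexons, 31 of 113 short exons had a cluster (27.4%, 20.1 to 36.3%), in 19 of 37 genes. They were led by Ptprd (409 counts), Sptan1 (247), Mta1 (223), Ptprk (184), Kif1b and Clasp1 (116). Of cytoskeletal and junction genes, 32 of 115 short exons had one (27.8%, 20.5 to 36.6%), led by Sorbs2 (853 counts) and Epb41 (710). Membrane traffic genes had 15 of 65 (23.1%, 14.5 to 34.6%), led by Dnm2 (367 counts), Numb (163) and Sec31a (141). Splicing regulators had 10 of 56 (17.9%, 10 to 29.8%), led by Mbnl1 (330 counts), Ptbp2 (313) and Rbfox2 (181), with 92 at Mbnl2. All 4 shares were above that of all short exons, but 10 splicing exons are few and the lower bound of that interval lies close to it. The leading gene of each list also had clusters at longer internal exons: 3 of 32 in Ptprd, 15 of 23 in Sorbs2, 4 of 19 in Dnm2 and 4 of 11 in Mbnl1. Longer exons of the lists were not compared as sets, so these shares do not set short exons apart from other exons of the same genes.

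Short exons with a cluster differed from those without in features that the choice of clusters did not use. A length divisible by 3, which keeps the reading frame whether the exon is included or not, was found in 75.2% of microexons with a cluster and 65.7% without, a difference of 9.54 points (0.88 to 16.9). For exons of 28 to 51 nt it was 53.0% and 45.7%, a difference of 7.30 points (2.35 to 12.2). These differences did not hold at each setting: for microexons a distance limit of 300 nt gave 8.34 points (-1.08 to 16.3), and for exons of 28 to 51 nt a limit of 1000 nt gave 3.49 points (-0.92 to 7.89) and the top 10% of counts 8.41 points (-3.79 to 20.1). Skipping by a coding transcript was found in 64.3% and 52.6% of microexons (difference 11.7 points, 2.53 to 20.1) and in 34.7% and 18.8% of exons of 28 to 51 nt (15.8 points, 11.3 to 20.6). Both features together were found in 55.8% against 41.2% of microexons and in 27.4% against 12.1% of exons of 28 to 51 nt. Intron lengths differed as well. For exons of 28 to 51 nt with and without a cluster, the medians were 1786.5 and 1438 nt upstream, and 1826.5 and 1290 nt downstream. For microexons they were 1178 and 1764 nt upstream, and 1743 and 1408 nt downstream. A contribution of intron length to the differences above was not tested.

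Position in the coding sequence and GCATG in the exon did not separate the exons. Among all short exons, 91.9% of those with a cluster and 92.1% of those without lay wholly within coding sequence. GCATG within the exon, in the sense direction, was found in 2.33% and 3.11%, a difference of -0.79 points (-1.88 to 0.88). A longer exon overlapped 8.41% of exons with a cluster and 11.8% of those without, a difference of -3.38 points (-5.60 to -0.65), and clusters inside a longer exon were left out by the rule.

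**Figure D4:**
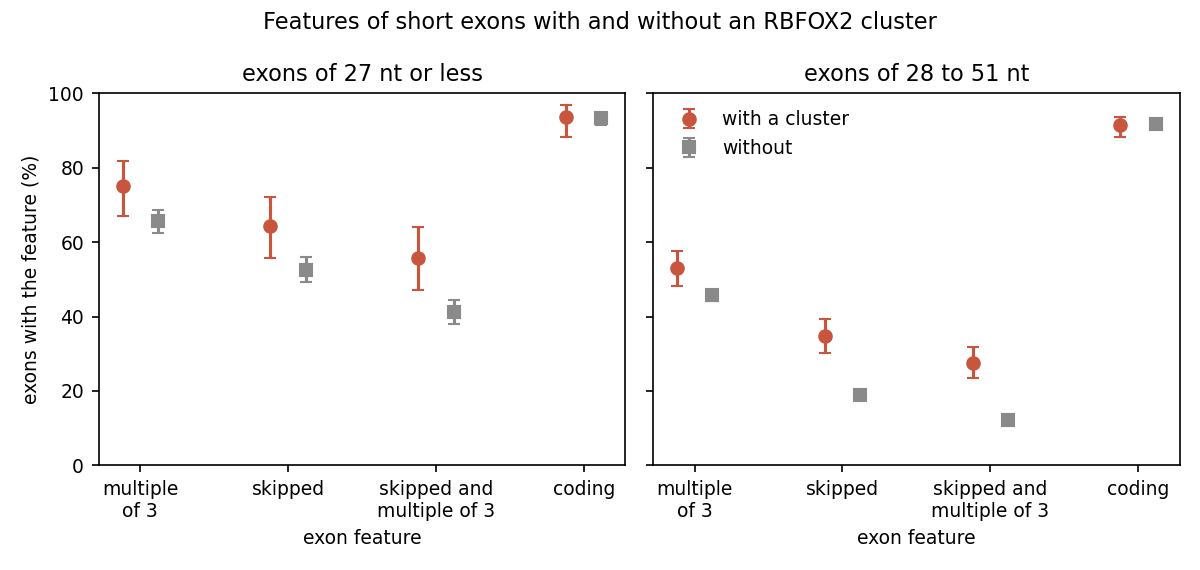
Share of short exons (y axis, percent) with a length divisible by 3, skipped by a coding transcript, with both features, and wholly within coding sequence, for exons with and without an intronic cluster in each length class; bars are Wilson 95% intervals. The first 3 features are more frequent with a cluster (55.8% against 41.2% of microexons were skipped and divisible by 3), and the coding share is level.

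The sequence under these clusters could not be read, because the reference held transcripts and not the genome, and the rule kept clusters out of all transcribed exons. Sequence was available for 182 of 206 further clusters that met the same rule apart from lying in an exon of a retained-intron transcript, and these are no part of the counts above. GCATG was present in 56 of their windows (cluster with 50 nt on each side, sense direction, 30.8%, 24.5 to 37.8%), against 20.1% of all windows of the same lengths in the available intron sequence beside short exons. Beside longer exons 25.7% of such windows held it, a difference of 5.11 points (-1.50 to 12.4). TGCATG, which contains GCATG, was present in 18.7% and in 10.6% of all windows, and the reverse complement CATGC in 18.1% and 17.02%.

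From the highest of these clusters, 3 windows with GCATG in capitals are shown because they lie beside alternative exons of well-known genes. The ribosomal protein gene Rps24 had 640 counts at chr14:24494114-24494165, 71 nt downstream of an 18-nt exon. Picalm, a clathrin assembly protein, had 235 counts at chr7:90194589-90194613, 305 nt downstream of a 24-nt exon. The insulin receptor gene Insr had 217 counts at chr8:3181483-3181621 on the minus strand, 150 nt downstream of the 36-nt exon whose inclusion sets the 2 receptor isoforms. The Insr window holds GCATG at 2 places, the others at 1. The plus strand is shown for Rps24 and Picalm and the minus strand for Insr, on GRCm38.
Rps24, chr14:24494064-24494215: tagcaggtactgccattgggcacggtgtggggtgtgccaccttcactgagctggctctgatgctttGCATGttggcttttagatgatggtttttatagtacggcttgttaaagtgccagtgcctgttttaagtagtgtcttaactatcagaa
Picalm, chr7:90194539-90194663: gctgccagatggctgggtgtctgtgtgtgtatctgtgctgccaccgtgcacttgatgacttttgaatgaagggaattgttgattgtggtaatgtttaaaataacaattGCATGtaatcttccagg
Insr, chr8:3181433-3181671: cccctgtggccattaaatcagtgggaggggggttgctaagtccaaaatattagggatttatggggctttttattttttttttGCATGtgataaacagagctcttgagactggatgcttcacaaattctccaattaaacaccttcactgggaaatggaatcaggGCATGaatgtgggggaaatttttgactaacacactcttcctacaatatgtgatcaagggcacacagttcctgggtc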

How the data were processed

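RBFOX2 eiCLIP libraries of primary mouse hepatocytes (3, in 1 group) were analysed from 1 deposited list of clusters. According to the labels and the study's methods, the authors demultiplexed with CASAVA 1.8.4, trimmed adaptors with cutadapt, discarded reads under 18 nt, aligned to GRCm38 with STAR 2.4.2a, removed PCR duplicates by barcode and called clusters with Paraclu on the pooled libraries. The deposited value of each cluster is a whole-number count (10 to 186971), read here as pooled cDNA starts; it was not normalised and no spread between libraries remains. Coordinates are 1-based.

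Clusters were assigned by midpoint with GENCODE M21 (the study named release M20). Ties for the nearest exon, present for 79 of the 802 clusters, went to the shortest internal exon, which favours short exons. Where every tied exon had to be short, the ratio of shares to longer exons was lower. It was 1.65 (1.38 to 1.96) for microexons and 1.25 (1.14 to 1.38) for exons of 28 to 51 nt. Short exons and longer ones were compared as shares of all internal exons of coding transcripts, with Wilson and Newcombe 95% intervals (Python 3.11.15, numpy 2.4.6, scipy 1.17.1, matplotlib 3.10.9), and no test was made. The procedure was tested on simulated clusters. Named exons were the 12 of each length class with the highest summed count, those in 8 genes that the study followed, the 5 with the most clusters, the 5 with the highest count on the lesser side, and up to 6 examples per list. The clusters, lists and rules were chosen with earlier results of these data known.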

Additional observations from a re-analysis of the deposited data

How the results depend on the processing

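Of 124 values recomputed under other settings, 103 stayed within the interval of the reported value (for medians its quartiles, for counts of clusters within 1.5 times), 21 fell outside it, and 0 differences whose interval left out 0 changed direction. Within those limits, the difference between the length classes fell to 1.54 points (-1.67 to 5.34) with introns of at least 1000 nt, and differences in length divisible by 3 lost their distance from 0 at 300 nt (microexons, 8.34 points), at 1000 nt (28 to 51 nt, 3.49 points) and in the top 10% of counts (28 to 51 nt, 8.41 points). Keeping clusters at or above the median count left 126 beside microexons and 329 beside exons of 28 to 51 nt, with a ratio within genes of 1.56. Keeping the top 10% of counts left 46 and 82, with 34.8% and 36.6% upstream, ratios to longer exons of 5.07 and 2.30, a ratio within genes of 2.39, differences of 30.8 points (length divisible by 3, microexons) and of 24.03 and 28.5 points (skipped, microexons and 28 to 51 nt). Merging clusters within 200 nt left 141 beside microexons. For exons of 28 to 51 nt the ratio was 1.62 with introns of at least 1000 nt and 1.22 with any overlap of a cluster with the 500 nt, which also gave 1.24 within genes. In retained introns the share of windows was 18.7% for TGCATG, 18.1% for CATGC, 17.9% for GCATG with 20 nt on each side and 40.7% (24.5 to 59.3%) in the top 10% of counts. TGCATG and CATGC were counted in place of GCATG, and 20 nt on each side gives shorter windows. The lower numbers of clusters after a count limit or merging are set by the rule itself. The cause of the other changes was not tested. Leaving out clusters of 5 nt or less, a setting chosen after seeing the data, left each value within those limits and raised the median width to 32 nt.

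No library was left out in turn, since the list is pooled, and the planned motif share was computed only for clusters in retained introns. No paired analysis was possible because the libraries form 1 group and share 1 pooled list. The pooled counts give no depth per library, so the intervals cover counting error only, and exons of 1 gene are not independent.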
